A study of Mus musculus with 23 samples.

Results

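Livers of mice given FSTL3 were compared with livers of mice given vehicle, as 4 FSTL3 libraries of batch 2 against 4 vehicle libraries of batch 1, out of 23 liver RNA libraries in 6 groups. The other groups were mice given EPDR1, FCN2 or LBP and the vehicle group of batch 2, and the batch numbers are the ones the labels give. All mice were C57BL/6J. FSTL3 was the recombinant protein at 1 µg per g of body weight, in 3 injections at intervals of 1 day. The labels used here do not give the vehicle's schedule, the animals' age or the protein's species of origin. The libraries were chosen by label: all those titled FSTL3 of batch 2 and all those titled vehicle of batch 1. The measured features were protein-coding nuclear genes, 11559 of 21985 after a filter on low counts. Because the protein was given in one batch and this vehicle in the other, protein and batch cannot be told apart in any value of the comparison. The batch 1 vehicle was chosen because its clock genes lie near those of the FSTL3 livers, whereas those of the batch 2 vehicle do not. For some genes and lists, values against the batch 2 vehicle, which share the FSTL3 libraries, are set beside the main ones. Where such a value is left out, the 2 vehicles need not give the same result.

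FSTL3, follistatin-like 3, is a secreted glycoprotein of the follistatin family that binds activins and related ligands such as myostatin and GDF11 and keeps them from their receptors. Activins bind type II receptors (ACVR2A, ACVR2B), which recruit type I receptors and lead to phosphorylation of SMAD2 and SMAD3. Bone morphogenetic proteins (BMPs) act through related receptors and SMAD1, SMAD5 and SMAD9, and in hepatocytes control the iron hormone hepcidin. Hepatocytes are also the source of most acute phase proteins, plasma proteins made in larger amounts when cytokines such as interleukin-6 and interleukin-1 reach the liver.

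The libraries of both groups differed in composition. Total counts were 9298871 to 10930800 in the FSTL3 libraries and 773499 to 8286793 in the batch 1 vehicle libraries, where replicate 2 was the shallowest. Protein-coding nuclear genes held 87.9% ± 2.42 of counts in FSTL3 libraries and 93.6% ± 0.605 in batch 1 vehicle libraries (SD, n = 4 each). Small structural RNAs held 0.725% ± 0.0391 in FSTL3 libraries and 0.00411% ± 0.000414 in batch 1 vehicle libraries. Long noncoding RNAs held 2.22% ± 0.25 in FSTL3 libraries and 0.514% ± 0.0344 in batch 1 vehicle libraries. Mitochondrial genes that code for no protein held 6.85% ± 2.3 in FSTL3 libraries and 0.658% ± 0.0287 in batch 1 vehicle libraries, whereas those that code for protein held 2.04% ± 0.0704 in FSTL3 libraries and 4.66% ± 0.516 in batch 1 vehicle libraries. The groups did not overlap in any of these 5 shares, each with a two-sided exact permutation p of 0.0286, the smallest that 4 against 4 libraries can give, and 0.0343 after adjustment over 6 shares. In the batch 2 vehicle libraries small structural RNAs held 0.0056% to 0.00773% and long noncoding RNAs 0.547% to 0.761%. Mitochondrial genes that code for no protein held 0.817% to 1.56% there and those that code for protein 7.36% to 11.8%. Protein-coding nuclear genes held 84.9% to 90.5% there, which overlaps the 84.5% to 89.6% of the FSTL3 libraries. Of 13 hepatocyte markers 7 were lower (53.8%, against 26.9% of all genes) and 2 higher (15.4%, against 28.1%). Once a trend with exon length was removed 2 were lower and 6 higher, against 23.4% and 23.5% of all genes. Alb, albumin, was not called (-0.05 ± 0.089, adjusted p = 0.66), with Apoa1, an apolipoprotein, at -0.88 ± 0.13 and Apob at 1.46 ± 0.089. The summed level of the 13 markers, of which Apob is a part, was 132779 to 147707 CPM, counts scaled by library size, in FSTL3 libraries and 120867 to 141137 CPM in batch 1 vehicle libraries. With that trend removed Apoa1 was at -0.34 (adjusted p = 0.059).

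At a Benjamini-Hochberg adjusted p under 0.05 in edgeR's quasi-likelihood test, 6360 of 11559 genes were called, which is 55% of those tested. Of these, 3253 were higher (28.1% of genes tested) and 3107 lower (26.9%) in FSTL3 livers, and the median log2 fold change of all genes was 0.01. Most called genes, 4439 or 69.8%, differed by less than 1 on the log2 scale. Of the rest, 1149 were higher and 772 lower by more than 1, and 185 higher and 79 lower by more than 2. In 5517 genes, 47.7%, the 4 FSTL3 libraries and the 4 batch 1 vehicle libraries did not overlap in CPM. Against the batch 2 vehicle the same test called 6668 of 11504 genes (58%; 3292 higher, 28.6%, and 3376 lower, 29.3%). The vehicle of batch 1 over the vehicle of batch 2, where no protein was given, differed in 3888 of 9606 genes (40.5%; 1908 higher, 19.9%, and 1980 lower, 20.6%). With both vehicle groups as one control of 8 libraries, 5441 of 11204 genes were called (48.6%; 2800 higher, 25%, and 2641 lower, 23.6%). The labels do not say that the libraries of a group came from separate animals, so these p-values measure the spread between libraries.

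Fold change went with transcript length. Across genes, the log2 fold change of FSTL3 over the batch 1 vehicle had a Spearman correlation of 0.502 with the summed exon length of the gene, against 0.549 for FSTL3 over the batch 2 vehicle and 0.150 for the 2 vehicle groups. These are descriptions over genes of shared libraries. In the decile of genes with the shortest exons (1847 bases or fewer) the median log2 fold change was -0.50, and 6.83% were higher and 54.2% lower in FSTL3 livers. In the decile with the longest (10136 bases or more) the median was 0.80, and 74.6% were higher and 4.84% lower. Removing a smooth trend with length from the fit took the correlation to -0.008 and left 5420 genes called (46.9%; 2718 higher, 23.5%, and 2702 lower, 23.4%). Of the 113 called genes that the text names by rule, 35 moved toward 0 by more than 1.5 times. Values after removal are given below as length-adjusted for called genes that lost their call or moved that far, and for lists where the counts changed most. The part that library composition and length play in each result was not tested.

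**Figure D1:**
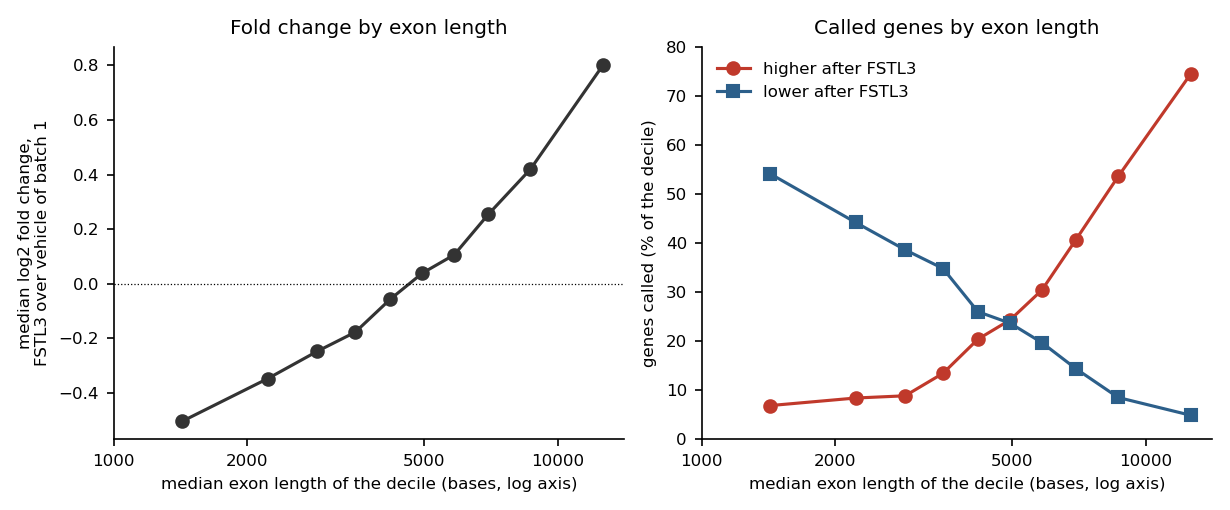
Genes were placed in deciles by summed exon length (x axis, bases, log scale). The left panel plots the median log2 fold change of FSTL3 over the vehicle of batch 1, from -0.50 in the shortest decile to 0.80 in the longest. The right panel plots the percent of each decile called higher (circles) or lower (squares) in FSTL3 livers.

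The 12 highest genes in FSTL3 livers were taken among called genes with 4 or more reads in each group and no overlap of the groups. Of these 12, 3 were histones that are made for DNA replication, Hist1h1e and Hist1h4d at the top and Hist1h4h below. The messages of these histones end in a short stem-loop in place of a poly(A) tail, a feature by which they are matured and degraded. The stem-loops of the 4 genes with the most FSTL3 reads among the listed histones that were higher are printed below with the one of H2afx, which went the other way. The capitals mark the match to the histone stem-loop, searched on the coding strand within 150 bases after the stop codon (GENCODE M21 transcripts, GRCm38). Any base was allowed at the variable positions, which is looser than the usual consensus.
Hist1h1e (chr13:23621777-23621802, minus strand): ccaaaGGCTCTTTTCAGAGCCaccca
Hist1h4d (chr13:23581945-23581970, plus strand): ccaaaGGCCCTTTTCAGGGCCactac
Hist1h4h (chr13:23531453-23531478, plus strand): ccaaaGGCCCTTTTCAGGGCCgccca
Hist1h4c (chr13:23698084-23698109, minus strand): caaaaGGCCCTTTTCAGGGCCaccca
H2afx (chr9:44335235-44335260, plus strand): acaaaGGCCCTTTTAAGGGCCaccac

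Hist1h1e, a linker histone H1 gene, was at 48.8, 29.5, 36.1 and 44.9 CPM in the FSTL3 libraries, against 1.27, 0, 0.514 and 0.348 CPM in the batch 1 vehicle libraries. Hist1h4d, one of several genes for histone H4, was at 15.9, 11, 11.3 and 14.7 CPM in FSTL3 libraries, against 0.424, 0, 0.257 and 0.348 CPM in batch 1 vehicle libraries. Hist1h4h, another H4 gene, was at 13.4, 11.7, 10.7 and 11.8 CPM in FSTL3 libraries and 0.424, 2.73, 1.03 and 0.695 CPM in batch 1 vehicle libraries. The FSTL3 libraries lay far above the batch 1 vehicle libraries in each of the 3, where the selection had required no overlap. The log2 fold changes were 6.04 ± 0.33, 5.4 ± 0.36 and 3.62 ± 0.28 (SE, adjusted p = 2.1e-09, 1.5e-09 and 8.8e-09). Hist1h4d passed the count filter through the FSTL3 libraries alone, so its p-value describes it and is no test. Hist1h4c had 411 reads over the FSTL3 libraries and 2 over the batch 1 vehicle libraries, a 75.6-fold ratio with a 95% counting interval of 20.8 to 626. Hist1h3e, for histone H3, had 85 reads in FSTL3 and none in batch 1 vehicle libraries, at least 10.4-fold higher against a floor of 3 reads over the group. Of 29 replication-dependent histone genes listed, 15 were measured, 10 of them higher and 1 lower in FSTL3 livers. Of the 15, 7 passed the count filter through the FSTL3 libraries alone, so that this count describes them and is no test. The lower one was Hist1h2bc, for histone H2B, the most abundant of the 15, at 77.1, 72.4, 77.3 and 73.6 CPM in FSTL3 libraries and 154, 167, 117 and 119 CPM in batch 1 vehicle libraries (-0.86 ± 0.11, adjusted p = 2.1e-06). The share of all counts held by the listed histones was 0.0204% ± 0.00212 in FSTL3 libraries and 0.0172% ± 0.00321 in batch 1 vehicle libraries (two-sided exact permutation p = 0.257, n = 4 each), and 0.0207% to 0.0291% in batch 2 vehicle libraries. Of the 15, 10 were higher and 4 lower than in the batch 2 vehicle. Length-adjusted, Hist1h2bc was at -0.3.

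Over the genome, 47 of 21048 genes with an annotated 3′ untranslated region held a match to this loose pattern in that window, and 13 of them were measured. This set was chosen after the values were seen: 9 were higher, and Hist1h1c, Hist1h4i and Hist3h2a were not called at log2 fold changes of 0.25 ± 0.19, 0.23 ± 0.42 and 0.22 ± 0.37. H2afx, which codes for the DNA-damage histone H2AX and makes both stem-loop and polyadenylated messages, was lower, at a log2 fold change of -2.28. Cell cycle genes were mostly not called: of 14 measured 1 was higher and 1 lower (7.14% each, against 28.1% and 26.9% of all genes). Cdkn1b, a cyclin-dependent kinase inhibitor, was higher (0.47 ± 0.13). Ccne1, cyclin E1, was lower (-1.21 ± 0.38, length-adjusted -0.88, adjusted p = 0.062, and -0.42 without vehicle replicate 3, adjusted p = 0.52). Mki67 stood at 0.11 ± 0.38 (adjusted p = 0.84) and Top2a at -0.026 ± 0.33 (adjusted p = 0.999). Histone H3 and H4 genes have near-identical copies, and H1 genes have related ones, so reads may be split between them.

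Among the other leading genes, Elf5, an ETS transcription factor of epithelial cells, was at 10.1, 12.3, 11 and 7.61 CPM in FSTL3 libraries and 0, 0, 0.642 and 0 CPM in batch 1 vehicle libraries. Nfe2l3, a CNC-family transcription factor related to NRF2, was at 10.3, 11.8, 11.5 and 10.2 CPM in FSTL3 libraries and 0.424, 0, 0.899 and 0 CPM in batch 1 vehicle libraries. Slc16a4, a member of the monocarboxylate transporter family, was at 13.5, 19.8, 19.1 and 17.4 CPM in FSTL3 libraries and 1.27, 1.37, 0.899 and 0.695 CPM in batch 1 vehicle libraries. All 3 were near the lower limit of detection in the batch 1 vehicle and low in the batch 2 vehicle (means of 0.619, 1.31 and 1.87 CPM). The selection had required no overlap with the batch 1 vehicle, and the FSTL3 libraries lay above the batch 2 vehicle libraries as well. The log2 fold changes of the 3 genes were 4.76 ± 0.43 (adjusted p = 4.7e-08), 4.2 ± 0.34 (adjusted p = 1.6e-08) and 4.16 ± 0.27 (adjusted p = 9.3e-10). Elf5 and Nfe2l3 reached the count filter's level, 10 reads at the median depth, in no batch 1 vehicle library. They passed through the FSTL3 libraries alone, so their p-values describe them and are no test.

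The rest of the 12 highest were likewise close to 0 in the vehicle libraries. Ccr9, the receptor for the chemokine CCL25, rose by 4.16 ± 0.49 on the log2 scale, Rgr, an opsin-like receptor of the retina, by 3.74 ± 0.27, and Gucy1a2, a subunit of soluble guanylate cyclase, by 3.47 ± 0.68. Tro, the adhesion protein trophinin, rose by 3.39 ± 0.39, Slc4a10, a sodium and bicarbonate transporter, by 3.34 ± 0.6, and Ugt1a7c, a glucuronosyltransferase, by 3.39 ± 0.38. Ugt1a7c shares its last exons with the other Ugt1a genes, which makes its count uncertain. Ccr9 averaged 5.49 ± 1.54 CPM in FSTL3 and 0.183 ± 0.212 CPM in batch 1 vehicle libraries, and Rgr 14.9 ± 2.21 CPM in FSTL3 and 0.922 ± 0.633 CPM in batch 1 vehicle libraries (SD, n = 4 each). Gucy1a2, Ccr9 and Slc4a10 rested on 4 reads each over the 4 vehicle libraries of batch 1. All 4 reads of Gucy1a2 lay in replicate 4 and all 4 of Slc4a10 in replicate 3, as did all 5 of Elf5, so that without that library the vehicle group has none and the fitted log2 fold change (7.6, 7.26 and 8.99 for Gucy1a2, Slc4a10 and Elf5) is no measure of size. The adjusted p of these 6 genes ran up to 4.9e-04, and the change over the batch 2 vehicle ran the same way in each (2.65, 3.65, 2.89, 3.15, 3.23 and 3.17 in the order named). Ccr9, Tro, Slc4a10 and Ugt1a7c likewise passed the count filter through the FSTL3 libraries alone, so their p-values describe them and are no test. The values over the batch 2 vehicle use the same FSTL3 libraries.

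**Figure D2:**
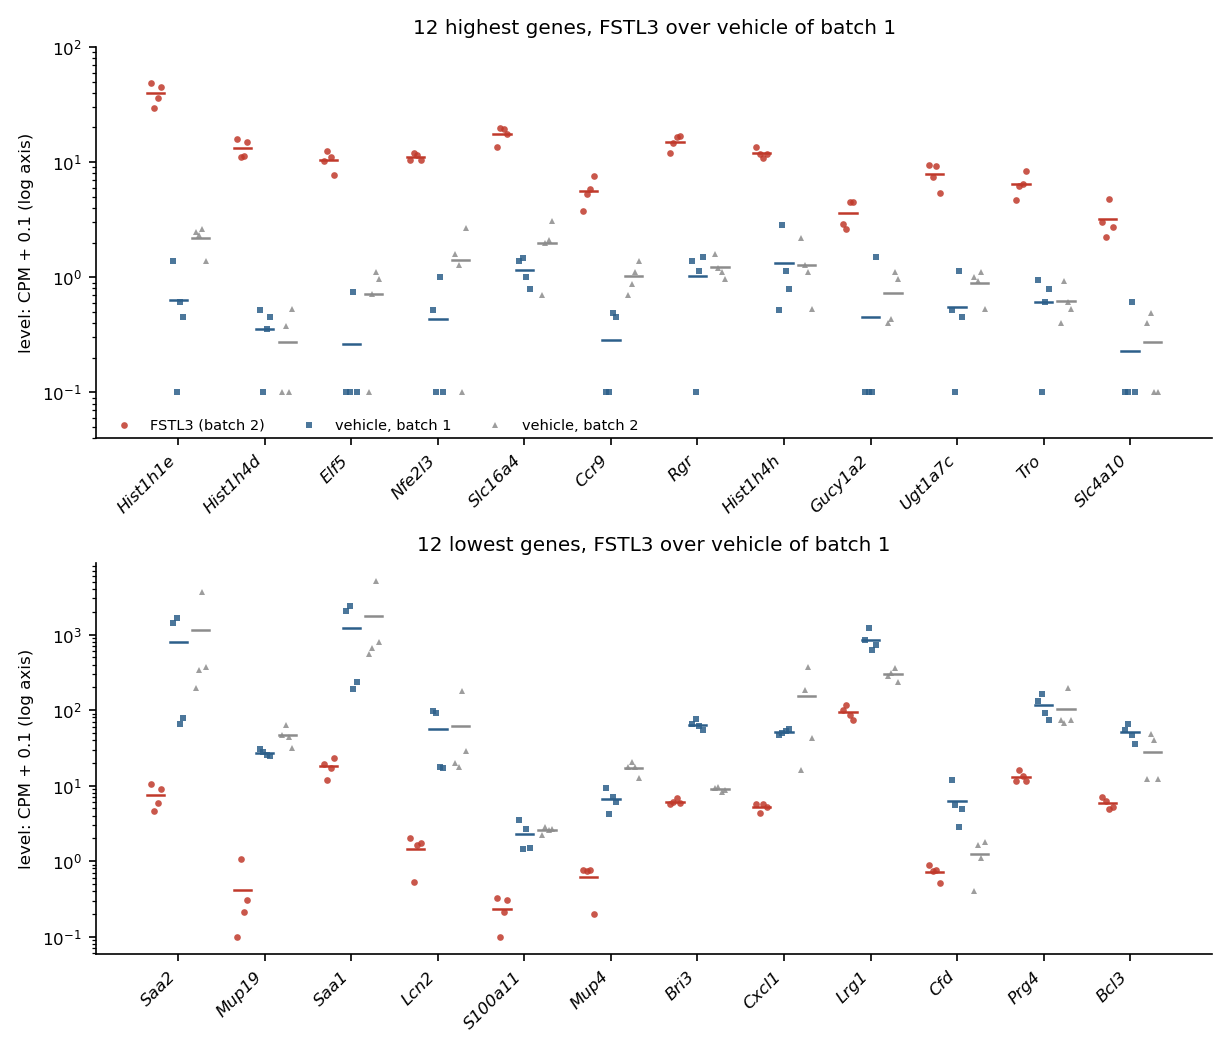
Each point is one library's level in CPM plus 0.1 on a log axis, for FSTL3 (circles), the vehicle of batch 1 (squares) and the vehicle of batch 2 (triangles), with bars at the group means of 4 libraries. The upper panel shows the 12 highest and the lower panel the 12 lowest genes. The 24 were chosen among genes whose FSTL3 and batch 1 vehicle libraries do not overlap, which holds for 47.7% of all genes tested. In Saa1, Saa2 and Lcn2 the batch 1 vehicle libraries fall into a high and a low pair.

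The lowest genes in FSTL3 livers, taken under the same conditions, were led by acute phase genes. Saa1, serum amyloid A1, was at 19.3, 11.9, 16.7 and 23.4 CPM in FSTL3 libraries, against 2073, 2370.2, 188 and 234 CPM in batch 1 vehicle libraries. Saa2, its close relative, was at 10.4, 4.57, 5.8 and 8.93 CPM in FSTL3 libraries, against 1439, 1632, 65.2 and 77.9 CPM in batch 1 vehicle libraries. Lcn2, lipocalin-2, which binds iron-carrying siderophores of bacteria, was at 1.89, 0.425, 1.53 and 1.62 CPM in FSTL3 libraries, against 97, 90.2, 17.5 and 17 CPM in batch 1 vehicle libraries. In all 3 genes vehicle replicates 1 and 2 stood well above replicates 3 and 4, and even the low pair lay above every FSTL3 library. The log2 fold changes were -6.07 ± 1.13 for Saa1 (adjusted p = 0.0042), -6.73 ± 1.46 for Saa2 (adjusted p = 0.0083) and -5.1 ± 0.94 for Lcn2 (adjusted p = 0.004). The batch 2 vehicle libraries were as spread, with Saa1 at 556, 669, 5103 and 795 CPM. Saa1 and Saa2 are near-identical, so reads may be split between them.

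Promoters of 3 of these genes are printed as the places where the inducing factors of the acute phase response act. Each runs from 250 bases before to 50 bases after the RefSeq start (GRCm38.p6, coding strand). Letters matching TTGCNNAA, a C/EBP motif, or TTCNNNGAA, a STAT3 motif, on either strand were searched, and the capitals mark the matches.
Saa1 (chr7:46742931-46743230, minus strand): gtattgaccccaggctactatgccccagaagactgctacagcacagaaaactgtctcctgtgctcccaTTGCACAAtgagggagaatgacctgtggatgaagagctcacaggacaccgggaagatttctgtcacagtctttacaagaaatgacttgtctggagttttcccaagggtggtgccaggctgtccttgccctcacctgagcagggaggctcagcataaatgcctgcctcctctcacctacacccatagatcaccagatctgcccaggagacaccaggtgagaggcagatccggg
Saa2 (chr7:46751583-46751882, plus strand): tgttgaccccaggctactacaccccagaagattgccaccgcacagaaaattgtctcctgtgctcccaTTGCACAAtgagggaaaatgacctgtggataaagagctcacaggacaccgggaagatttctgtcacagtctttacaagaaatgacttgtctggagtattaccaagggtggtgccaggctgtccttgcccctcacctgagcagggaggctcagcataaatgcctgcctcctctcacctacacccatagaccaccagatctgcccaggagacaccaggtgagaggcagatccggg
Lcn2 (chr2:32387690-32387989, minus strand): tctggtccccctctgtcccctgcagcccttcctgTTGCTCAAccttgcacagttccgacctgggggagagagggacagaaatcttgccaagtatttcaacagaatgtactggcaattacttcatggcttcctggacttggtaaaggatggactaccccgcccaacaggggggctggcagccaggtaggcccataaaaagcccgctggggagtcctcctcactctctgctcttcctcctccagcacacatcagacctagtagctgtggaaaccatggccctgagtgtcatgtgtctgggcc
The 3 windows hold 1 C/EBP match each and no STAT3 match. The RefSeq start of Lcn2 lies 513 bases from the Ensembl 5′ end, so its window may miss part of the promoter in use. Of the 24 measured acute phase genes with a promoter sequence, 15 held the C/EBP letters (62.5%) and 5 the STAT3 letters (20.8%). Of 16515 promoters of protein-coding genes the shares were 10% and 7.81% for the same motifs. A match is a run of letters and not a measured site. An NF-kB motif was also searched at first and is not reported here.

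Cxcl1, a neutrophil-attracting chemokine and a target of NF-kB, was at 5.68, 4.25, 5.58 and 5.17 CPM in FSTL3 libraries, against 47, 49.2, 53.3 and 55.6 CPM in batch 1 vehicle libraries. Lrg1, leucine-rich alpha-2-glycoprotein, a secreted plasma protein, was at 101, 115, 86.4 and 73.7 CPM in FSTL3 libraries, against 839.8, 1223, 632 and 719.8 CPM in batch 1 vehicle libraries. Bcl3, an atypical IkB protein that acts in the nucleus, was at 7.02, 6.16, 4.81 and 5.07 CPM in FSTL3 libraries, against 54.2, 65.6, 46.2 and 35.5 CPM in batch 1 vehicle libraries. These 3 were evenly high over the batch 1 vehicle libraries, without the split seen in Saa1. They fell by 3.33 ± 0.13 (adjusted p = 4.3e-12), 3.18 ± 0.23 (adjusted p = 5.9e-06) and 3.06 ± 0.17 (adjusted p = 4.9e-10) on the log2 scale. The batch 2 vehicle libraries were uneven in Cxcl1, at 16.1, 184, 369 and 42.4 CPM, and in Bcl3, at 11.9, 48.4, 39.8 and 12 CPM. Against that vehicle Cxcl1 was at -4.92, Lrg1 at -1.72 and Bcl3 at -2.43. Prg4, lubricin, fell by 3.07 ± 0.25 (adjusted p = 1.5e-05) and Cfd, complement factor D, by 3.13 ± 0.48 (adjusted p = 4.4e-05). Cfd had 23 reads in FSTL3 and 67 in batch 1 vehicle libraries. It passed the count filter through the batch 1 vehicle libraries alone, so its p-value describes it and is no test. In the batch 2 vehicle it averaged 1.14 ± 0.639 CPM and was not tested.

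The other 4 of the lowest 12 were 2 urinary proteins, S100a11 and Bri3. Mup19 and Mup4, major urinary proteins that carry pheromones, were both far lower in FSTL3 livers. Mup19 averaged 0.317 ± 0.434 CPM in FSTL3 libraries and 26.9 ± 2.48 CPM in batch 1 vehicle libraries (-6.3 ± 0.36, adjusted p = 5.8e-09), and Mup4 0.516 ± 0.277 CPM in FSTL3 libraries and 6.57 ± 2.18 CPM in batch 1 vehicle libraries (-3.73 ± 0.37, adjusted p = 1.4e-07). Mup genes are a family of near-identical copies whose reads may be split or lost, and Mup20 and Mup3 were at -0.51 ± 0.24 (adjusted p = 0.12) and -0.073 ± 0.15 (adjusted p = 0.7). S100a11, a calcium-binding protein, fell by 3.97 ± 0.56 on 5 reads over the FSTL3 libraries and 33 over the batch 1 vehicle libraries (adjusted p = 1.1e-05). Mup19, Mup4 and S100a11 passed the count filter through the batch 1 vehicle libraries alone, so their p-values describe them and are no test. Bri3 was at 5.57, 6.06, 6.78 and 5.78 CPM in FSTL3 libraries and 65.7, 76.5, 60.6 and 53.9 CPM in batch 1 vehicle libraries (-3.37 ± 0.12, adjusted p = 4.3e-12). Against the batch 2 vehicle, at 9.26, 9.57, 8.06 and 8.56 CPM, its log2 fold change was -0.64, and the vehicle of batch 1 over the vehicle of batch 2 differed by 2.78.

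Acute phase genes as a list were lower in FSTL3 livers. Of 29 measured members 24 fell and none rose, against 26.9% of all genes lower, and the list's median log2 fold change was -1.08, against 0.01 for all genes. Hp, haptoglobin, which binds free haemoglobin, averaged 1655 ± 137 CPM in FSTL3 libraries and 6572 ± 1883 CPM in batch 1 vehicle libraries (-1.99 ± 0.18, adjusted p = 4.7e-06). Orm2, an alpha-1-acid glycoprotein, fell by 2.67 ± 0.53 (adjusted p = 0.0049), Serpina3n, a protease inhibitor, by 1.89 ± 0.13 (adjusted p = 1.9e-08), Steap4, a metalloreductase, by 1.37 ± 0.12 (adjusted p = 2.7e-08) and Lbp, the lipopolysaccharide-binding protein, by 1.03 ± 0.12 (adjusted p = 1.1e-06). The fibrinogen chains Fga, Fgb and Fgg fell by 0.71 ± 0.091 (adjusted p = 3.5e-06), 0.88 ± 0.094 (adjusted p = 3.9e-07) and 0.99 ± 0.1 (adjusted p = 1.3e-07). The 5 members that were not called were Mt1 at -1.52 ± 0.67, Serpina1e at -0.57 ± 0.22, Cp at -0.022 ± 0.09, Serpina1a at 0.0081 ± 0.11 and Serpina3k at 0.17 ± 0.093. Length-adjusted, 19 were lower and 2 higher (Serpina1a and Serpina3k, at 0.46 and 0.59). Against the batch 2 vehicle 24 were lower and none higher, and between vehicle of batch 1 and vehicle of batch 2 3 were higher and 7 lower. Length-adjusted, Fga was at -0.44 and Fgg at -0.57.

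Genes of cytokine signalling and its feedback were lower in 9 of 16 cases (56.25%, against 26.9% of all genes) and higher in none, with a median of -0.88. Socs3, which shuts off interleukin-6 receptor signalling, averaged 6.36 ± 0.881 CPM in FSTL3 libraries and 27.2 ± 1.09 CPM in batch 1 vehicle libraries (-2.12 ± 0.14, adjusted p = 1.1e-09). Cebpb and Cebpd, the C/EBP factors induced in the acute phase, fell by 1.76 ± 0.11 (adjusted p = 1.1e-09) and 1.79 ± 0.3 (adjusted p = 3.6e-04), and Rela, the NF-kB subunit p65, by 1.13 ± 0.12 (adjusted p = 4.3e-07). Cebpb was at 36.8, 38.5, 37.4 and 44.4 CPM in FSTL3 libraries, 128, 175, 115 and 129 CPM in batch 1 vehicle libraries and 14.6, 26.6, 21.7 and 15.8 CPM in batch 2 vehicle libraries. The FSTL3 libraries thus lay between the vehicle groups: Cebpb was higher in FSTL3 livers than in the batch 2 vehicle (0.87, adjusted p = 3.5e-04), and Cebpd was at 0.19 there (adjusted p = 0.57). Nfkb1, Tnfaip3 and Il6ra were not called, at 0.22 ± 0.11, 0.35 ± 0.3 and 0.47 ± 0.27. Of 16 immediate early genes 5 were lower (among them Junb at -1.53 ± 0.17 and Zfp36 at -0.88 ± 0.12) and 1 higher, Klf10, a target of TGF-beta signalling, at 1.27 ± 0.38 (adjusted p = 8.7e-06, 5.7e-06 and 0.029). Fos and Egr1 were not called (-0.38 ± 0.38 and -0.49 ± 0.64). Of the immediate early genes 31.25% were lower, near the 26.9% of all genes, and 6.25% higher, against 28.1%.

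Complement genes were lower in 17 of 22 cases (77.3%, against 26.9% of all genes) and higher in none (median -0.33). Of the 17, Cfd passed the count filter through the batch 1 vehicle libraries alone, so its call is no test. C3, the central component, was at 6865, 7348, 5525 and 7603 CPM in FSTL3 libraries, against 14047, 14039.5, 11980.2 and 12333 CPM in batch 1 vehicle libraries, with no overlap (-0.95 ± 0.11, adjusted p = 6.6e-07). Serping1, the C1 inhibitor, fell by 1.11 ± 0.093 (adjusted p = 2.2e-08). Length-adjusted, 10 were lower and 1 higher. Among 19 coagulation genes 11 were lower and 3 higher: Plg, plasminogen, fell by 1.33 ± 0.094 (adjusted p = 2.7e-09) and Fetub, fetuin-B, by 1.58 ± 0.1 (adjusted p = 8.6e-10), while Klkb1, plasma prekallikrein, rose by 0.82 ± 0.11 (adjusted p = 6.0e-06) and F11, factor XI, by 0.64 ± 0.12 (adjusted p = 1.6e-04). As counted, 57.9% of the coagulation genes were lower and 15.8% higher, against 26.9% and 28.1% of all genes. Length-adjusted, 7 were lower and 6 higher. Length-adjusted, Serping1 was at -0.73 and F11 at 1.04.

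Of 34 interferon-response genes 7 were higher (20.6%, against 28.1% of all genes) and 10 lower (29.4%, against 26.9%), and length-adjusted 9 were higher and 8 lower. Rnf213, a very large ubiquitin ligase, rose by 1.56 ± 0.11 (adjusted p = 3.5e-09; length-adjusted 0.57) and Gbp7, a guanylate-binding protein, by 1.09 ± 0.13 (adjusted p = 2.2e-06), whereas Zbp1, a nucleic acid sensor, fell by 1.82 ± 0.28 (adjusted p = 3.8e-05) and Isg15, a ubiquitin-like modifier, by 1.2 ± 0.3 (adjusted p = 0.0022) (Isg15 length-adjusted -0.54, adjusted p = 0.13). Antigen presentation genes were lower in 14 of 16 cases, with none higher (median -0.62). The class I heavy chains H2-D1 and H2-K1 fell by 0.98 ± 0.086 (adjusted p = 3.7e-08) and 0.81 ± 0.1 (adjusted p = 1.4e-06), and the class II genes H2-Ab1, H2-Eb1 and Cd74 by 0.95 ± 0.2 (adjusted p = 0.0021), 0.95 ± 0.19 (adjusted p = 7.9e-04) and 0.93 ± 0.12 (adjusted p = 3.3e-06). Length-adjusted, 6 were lower and 1 higher, B2m, the class I light chain, at 0.32 against -0.32 ± 0.1 before. Against the batch 2 vehicle 6 were lower and 2 higher. Length-adjusted, H2-D1 was at -0.63, H2-K1 at -0.47, H2-Ab1 at -0.48 (adjusted p = 0.072), H2-Eb1 at -0.39 (adjusted p = 0.13) and Cd74 at -0.42.

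Markers of Kupffer cells, the macrophages of the liver sinusoids, were lower in 12 of 14 cases (85.7%, against 26.9% of all genes). Their median was -1.16, length-adjusted -0.72. In whole liver, fewer cells of a type and less RNA per cell cannot be told apart. C1qc, a chain of complement C1q, was at 13, 14.6, 12.4 and 12.8 CPM in FSTL3 libraries, against 64.8, 38.3, 45 and 53.2 CPM in batch 1 vehicle libraries, and C1qb at 16.2, 17.4, 13.7 and 16.6 CPM in FSTL3 libraries, against 44.5, 43.7, 44.1 and 46.2 CPM in batch 1 vehicle libraries. Both genes were separated with no overlap (-1.97 ± 0.13 and -1.49 ± 0.11, adjusted p = 1.6e-09 and 3.9e-09). Marco, a scavenger receptor, fell by 3.05 ± 0.29 (adjusted p = 5.3e-07), Cd68 by 1.68 ± 0.22 (adjusted p = 4.1e-06), Timd4, a receptor for apoptotic cells, by 1.53 ± 0.24 (adjusted p = 2.8e-05) and Clec4f by 0.75 ± 0.12 (adjusted p = 4.9e-05). Adgre1, which codes for F4/80, did not differ detectably (-0.035 ± 0.18, adjusted p = 0.89), and Slc40a1, the iron exporter ferroportin, rose by 0.34 ± 0.12 (length-adjusted -0.088, adjusted p = 0.58). The summed level of the 14 markers was 523 to 544 CPM in FSTL3 libraries and 635 to 906 CPM in batch 1 vehicle libraries. In the batch 2 vehicle libraries it was 350 to 852 CPM, a range that holds the FSTL3 libraries. Length-adjusted, 11 were lower and none higher. Against the batch 2 vehicle 8 were lower and 1 higher, with Csf1r, Cd163 and Folr2 not called there (0.35, 0.14 and 0.43). Length-adjusted, C1qb was at -0.92 and Clec4f at -0.39.

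Sinusoidal endothelial markers went the other way, with 8 of 16 higher and 1 lower (median 0.58); length-adjusted 7 were higher and 2 lower (median 0.29). Stab2, a hyaluronan scavenger receptor, was at 135, 132, 138 and 125 CPM in FSTL3 libraries, against 54.7, 32.8, 54.6 and 66.7 CPM in batch 1 vehicle libraries, and Ptprb, a receptor tyrosine phosphatase, at 289, 214, 286 and 288 CPM in FSTL3 libraries, against 106, 77.9, 92.2 and 107 CPM in batch 1 vehicle libraries. The groups did not overlap in either (1.26 ± 0.12 and 1.46 ± 0.12, adjusted p = 1.8e-07 and 1.9e-08; length-adjusted 0.86 and 0.68). Mrc1, the mannose receptor, rose by 0.8 ± 0.14, Kdr, the VEGF receptor, by 0.55 ± 0.11 (length-adjusted 0.12, adjusted p = 0.37), and Clec4g fell by 0.65 ± 0.11. The marker genes of this list were long, with a median of 6273.5 exon bases, against 1983.5 in the Kupffer list. Among 18 stellate cell and matrix genes 6 were higher and 4 lower (length-adjusted 5 and 5): Hgf, hepatocyte growth factor, rose by 1.5 ± 0.13 (adjusted p = 4.7e-08), Pdgfrb by 0.68 ± 0.18 (adjusted p = 0.0043) and Reln, reelin, by 1.58 ± 0.21 (adjusted p = 1.7e-04; length-adjusted 0.3, adjusted p = 0.29), while Des, desmin, fell by 1.04 ± 0.26 (adjusted p = 0.0024) and Timp2, a metalloproteinase inhibitor, by 0.89 ± 0.21 (adjusted p = 0.0015). Col1a1, Col1a2 and Col3a1 were not called (-0.94 ± 0.45, 0.18 ± 0.18 and 0.45 ± 0.26). The shares of the stellate list, 33.3% higher and 22.2% lower, lay near the 28.1% and 26.9% of all genes. Length-adjusted, Clec4g was at -0.28.

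Markers of other cell types were compared by their summed levels. Red cell markers summed to 166 to 315 CPM in FSTL3 libraries, 279 to 444 CPM in batch 1 vehicle libraries and 228 to 311 CPM in batch 2 vehicle libraries. Neutrophil markers summed to 1.42 to 1.59 CPM in FSTL3 libraries and 5.46 to 10.6 CPM in batch 1 vehicle libraries. Csf3r, the receptor for granulocyte colony-stimulating factor, was the sole one measured (-1.3 ± 0.37, adjusted p = 0.0062), and Ly6g and Mpo had no reads in either group. Pancreatic acinar markers summed to 6.90 to 14.4 CPM in FSTL3 libraries and 9.32 to 131 CPM in batch 1 vehicle libraries. Of the 13 acinar genes 10 had no reads in the FSTL3 libraries and 2 none in the batch 1 vehicle libraries, and the measured one, Cela1, an elastase, was not called (-0.64 ± 0.55, adjusted p = 0.36). Apart from Cela1, most acinar reads of the batch 1 vehicle lay in replicate 4, such as 72 of 76 for Pnlip and 44 of 49 for Ctrb1. These counts therefore rest on a single library and are no difference between the groups. Skeletal muscle markers reached at most 0.85 CPM in FSTL3 and 6.60 CPM in batch 1 vehicle libraries. Adipocyte markers summed to 7.01 to 11 CPM in FSTL3 libraries and 6.83 to 35.2 CPM in batch 1 vehicle libraries, and T and NK cell markers to 1.86 to 5.13 CPM in FSTL3 libraries and 3.81 to 5.46 CPM in batch 1 vehicle libraries. B cell markers summed to 2.19 to 3.68 CPM in FSTL3 libraries and 2.73 to 5.21 CPM in batch 1 vehicle libraries. Of these lists Cfd, described above, was the one lower gene, and Fabp4 and Jchain were measured and not called (-0.55 ± 0.3 and -0.77 ± 0.48). Of 5 measured cholangiocyte markers none was higher and 2 were lower (40%, against 26.9% of all genes), among them Krt7, a keratin (-1.23 ± 0.51, adjusted p = 0.048). Krt7 had 28 reads in FSTL3 and 25 in batch 1 vehicle libraries, its groups overlapped, and its call was lost when any one library other than FSTL3 replicate 3 or vehicle replicate 2 was left out and under the replicate block (-0.86, adjusted p = 0.13). Of 5 red cell genes 4 (80%, against 26.9% of all genes) were lower before length adjustment (Alas2 -0.44 ± 0.11, Hbb-bt -1.16 ± 0.29) and none after it (-0.071 and -0.47). The part of these cell types in the results was not tested.

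The targets of the injected protein were examined by role in the pathway. The mouse gene Fstl3 had no reads in the FSTL3 libraries and 1 read in the batch 1 vehicle libraries, and the injected protein leaves no RNA to measure, so the gene is no check of the treatment. Among 13 measured ligands 1 was higher (7.69%, against 28.1% of all genes) and 3 lower (23.1%, against 26.9%). Inhbc, the activin beta C subunit made by hepatocytes, was at 15.9, 19.4, 13.3 and 17.6 CPM in FSTL3 libraries, against 77.5, 94.3, 66.9 and 72.6 CPM in batch 1 vehicle libraries. The batch 2 vehicle libraries, at 53.2, 76.6, 66.5 and 65 CPM, lay above the FSTL3 libraries as well. Inhbc fell by 2.19 ± 0.13 on the log2 scale (adjusted p = 4.1e-10; against the batch 2 vehicle -2.04, adjusted p = 3.1e-08; between the vehicles 0.2, adjusted p = 0.25). Tgfb1, transforming growth factor beta 1, was at 2.56, 2.97, 2.84 and 4.56 CPM in FSTL3 libraries, against 10.2, 10.9, 8.73 and 8.34 CPM in batch 1 vehicle libraries (-1.5 ± 0.22, adjusted p = 2.0e-05), but stood at -0.23 against the batch 2 vehicle (adjusted p = 0.49). Bmp5 was at 8.02, 10.2, 10.3 and 10.7 CPM in FSTL3 libraries and 4.24, 4.1, 4.37 and 5.56 CPM in batch 1 vehicle libraries (1.07 ± 0.19, adjusted p = 1.4e-04).

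Bmp4 fell by 0.86 ± 0.28 (adjusted p = 0.015), a call that was lost after length adjustment (-0.46, adjusted p = 0.18) and without vehicle replicate 3. The other activin subunits were not called: Inhba at -0.4 ± 0.42 (adjusted p = 0.46), Inhbb at -0.23 ± 0.38 (adjusted p = 0.63) and Inhbe at -0.79 ± 0.37 (adjusted p = 0.12). Bmp2 and Bmp6, the BMP ligands of liver endothelium that control hepcidin, stood at -0.13 ± 0.16 (adjusted p = 0.51) and 0.083 ± 0.27 (adjusted p = 0.82). Of the other known ligands of FSTL3, Mstn, myostatin, had no reads and Gdf11 21 reads in FSTL3 and 7 in batch 1 vehicle libraries, too few to be tested.

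Receptors were higher in 5 of 12 cases (41.7%, against 28.1% of all genes) and lower in 2 (16.7%, against 26.9%; median 0.34). Acvr2a, the activin type II receptor, was at 60.2, 61.7, 68.6 and 64.9 CPM in FSTL3 libraries, against 35.2, 23.2, 35.3 and 35.5 CPM in batch 1 vehicle libraries. Tgfbr1, the TGF-beta type I receptor, was at 70.3, 72.9, 78.2 and 66.1 CPM in FSTL3 libraries, against a mean of 37.8 ± 2.21 CPM in batch 1 vehicle libraries. Bmpr2, the BMP type II receptor, was at 158, 155, 183 and 186 CPM in FSTL3 libraries, against 64.8, 41, 52.5 and 45.5 CPM in batch 1 vehicle libraries. In each of the 3 the lowest FSTL3 library lay above the highest vehicle library, with log2 fold changes of 0.9 ± 0.11 (adjusted p = 1.7e-06), 0.89 ± 0.1 (adjusted p = 4.8e-07) and 1.7 ± 0.12 (adjusted p = 2.8e-09). Bmpr2 is one of the longest messages measured, and its length-adjusted value was 0.65, against 0.79 for Acvr2a and 0.69 for Tgfbr1. Tgfbr3, betaglycan, a co-receptor, rose by 1.04 ± 0.14 and Bmpr1a by 0.36 ± 0.1 (length-adjusted 0.18, adjusted p = 0.12). Eng, endoglin, a co-receptor of endothelium, fell by 0.4 ± 0.11 but was higher than in the batch 2 vehicle (1.03), and Hfe2, hemojuvelin, the BMP co-receptor of hepatocytes, fell by 0.33 ± 0.1 (length-adjusted 0.092, adjusted p = 0.48). Acvr2b, Acvr1b, Acvr1 and Tgfbr2 were not called (0.32 ± 0.27, -0.32 ± 0.15, -0.0062 ± 0.14 and -0.28 ± 0.14).

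Among 12 traps and inhibitors 1 was higher (8.33%) and 4 lower (33.3%). Skil, a SMAD co-repressor and itself a target of activin and TGF-beta, averaged 38.5 ± 7.29 CPM in FSTL3 libraries and 17.1 ± 2.72 CPM in batch 1 vehicle libraries (1.13 ± 0.15, adjusted p = 6.1e-06; length-adjusted 0.64), and its relative Ski 20.8 ± 3.28 CPM in FSTL3 and 33.6 ± 3.32 CPM in batch 1 vehicle libraries (-0.69 ± 0.13, adjusted p = 2.2e-04). Tmprss6, the protease that cleaves hemojuvelin, was at 298, 305, 257 and 273 CPM in FSTL3 libraries, against 516, 539.6, 478 and 506 CPM in batch 1 vehicle libraries (-0.85 ± 0.089, adjusted p = 2.9e-07). The batch 2 vehicle was at 320.5, 280.1, 240.3 and 213 CPM, and the difference from it was 0.043 (adjusted p = 0.79). Smurf1, a ubiquitin ligase for SMADs and receptors, fell by 0.55 ± 0.11, but rose by 0.52 against the batch 2 vehicle (adjusted p = 3.0e-04 and 0.015), and Chrd, the BMP antagonist chordin, fell by 0.89 ± 0.23 (adjusted p = 0.0036). Fst, follistatin, the nearest relative of FSTL3, stood at -0.055 ± 0.96 (adjusted p = 0.97), and the inhibitory SMADs Smad7 and Smad6 at 0.36 ± 0.25 (adjusted p = 0.24) and -0.41 ± 0.21 (adjusted p = 0.1).

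Of 16 SMADs and target genes 2 were higher (12.5%, against 28.1% of all genes) and 4 lower (25%, against 26.9%), and length-adjusted 3 were higher and 2 lower. Smad5, which transmits BMP signals, rose by 0.55 ± 0.093 (adjusted p = 7.8e-05; length-adjusted 0.26) and Smad2, which transmits activin signals, by 0.33 ± 0.13 (adjusted p = 0.035). Hamp, hepcidin, averaged 115 ± 65.8 CPM in FSTL3 libraries and 378 ± 52.7 CPM in batch 1 vehicle libraries (-1.71 ± 0.39, adjusted p = 0.0098), and its call was lost after length adjustment (-0.82, adjusted p = 0.14). The BMP targets Id2, Id3 and Atoh8 fell by 0.93 ± 0.12 (adjusted p = 4.1e-06), 0.87 ± 0.22 (adjusted p = 0.0082) and 1.18 ± 0.22 (adjusted p = 3.5e-04). Id2 was at 102, 120.5, 88.2 and 118 CPM in FSTL3 libraries, against 231, 225, 194 and 168 CPM in batch 1 vehicle libraries, without overlap, and Id3 lost its call after length adjustment (-0.42, adjusted p = 0.15). Id1, the best-known of the BMP targets, was not called (-0.28 ± 0.28, adjusted p = 0.41), nor were Pmepa1 and Ccn2, targets of activin and TGF-beta (-0.33 ± 0.36 and 0.36 ± 0.5; adjusted p = 0.47 and 0.57). Length-adjusted, Smad2 was at 0.5 and Id2 at -0.56.

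**Figure D3:**
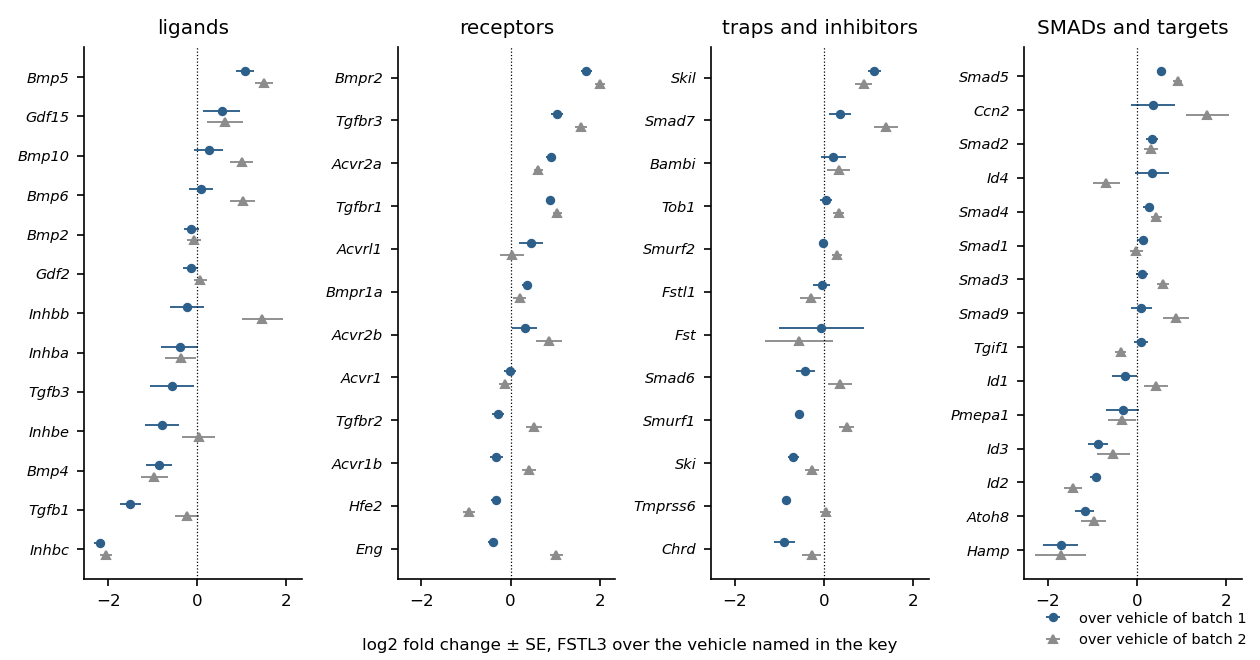
Log2 fold changes with SE (x axis) of measured genes of the activin, TGF-beta and BMP pathways, by role, for FSTL3 over the vehicle of batch 1 (circles) and over the vehicle of batch 2 (triangles). Inhbc lies near -2 against both vehicles and Bmpr2, Tgfbr3, Acvr2a and Tgfbr1 above 0 against both, while Tgfb1, Tmprss6, Eng and Smurf1 differ between the 2.

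The clock genes, for which the vehicle group was chosen, are given as a description. A clock index, which subtracts the median log2 level of genes in the Bmal1 arm from the median over genes in the Per and Dbp arm, was 1.89 ± 0.219 in FSTL3 libraries, 1.23 ± 0.600 in batch 1 vehicle libraries and -1.97 ± 0.597 in batch 2 vehicle libraries (SD, n = 4 each). By library, batch 1 vehicle replicates 1 to 4 were at 0.722, 0.703, 1.81 and 1.69, and the FSTL3 libraries at 1.63 to 2.14. Replicates 1 and 2 of that vehicle thus lay below every FSTL3 library. These replicates were also the high pair in Saa1, Saa2 and Lcn2. Nearer to each other on this index than to the batch 2 vehicle, the groups were still apart in single genes. Dbp, a transcription factor of the clock's output, was at 41.8, 50.7, 35.1 and 29.3 CPM in FSTL3 libraries, against 72, 82, 113 and 84.1 CPM in batch 1 vehicle libraries and 0.896, 2, 8.57 and 13.7 CPM in batch 2 vehicle libraries. Per3, a period gene, was at 53.8, 60.2, 60.5 and 54.5 CPM in FSTL3 libraries, against 30.5, 34.2, 32.6 and 32 CPM in batch 1 vehicle libraries and 2.99, 3.73, 8.06 and 7.7 CPM in batch 2 vehicle libraries. The FSTL3 libraries were thus below the batch 1 vehicle in Dbp and above it in Per3, without overlap, and above the batch 2 vehicle in both.

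Log2 fold changes over the batch 1 vehicle were -1.21 ± 0.19 for Dbp, -0.62 ± 0.21 for Per1, -0.095 ± 0.13 for Per2, 0.82 ± 0.1 for Per3 (length-adjusted 0.34), -0.54 ± 0.24 for Nr1d1, which codes for REV-ERB alpha, and 0.47 ± 0.1 for Nr1d2, its relative. The related factors Tef and Hlf were at 0.2 ± 0.088 and -0.49 ± 0.1. Of the other arm, Arntl, which codes for BMAL1, stood at 0.49 ± 0.39, Clock at 0.95 ± 0.1 (length-adjusted 0.15), Nfil3, a repressor of the Dbp targets, at -1.1 ± 0.14 and Cry1 at -0.58 ± 0.17. Npas2 had 10 reads in FSTL3 and 1 in batch 1 vehicle libraries and was not tested. Differences of this size in clock genes remained between the groups, and their part in the other results was not tested. Length-adjusted, Nfil3 was at -0.67 and Cry1 at -0.37 (adjusted p = 0.083).

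**Figure D4:**
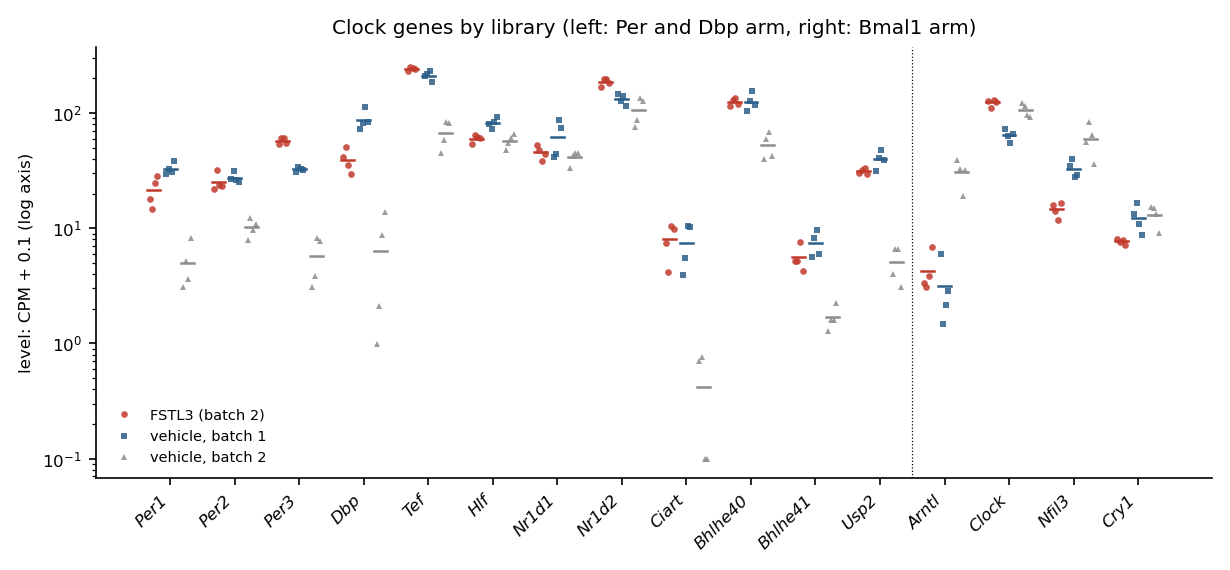
Levels of clock genes by library, in CPM plus 0.1 on a log axis, for FSTL3 (circles), the vehicle of batch 1 (squares) and the vehicle of batch 2 (triangles), with bars at the means. In the Per and Dbp arm the FSTL3 libraries lie near the vehicle of batch 1, and Per3, Dbp, Ciart and Usp2 of the batch 2 vehicle lie far below both.

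Genes of sterol synthesis, fatty acid oxidation and lipid droplets were lower more often than higher. Of 25 cholesterol genes 11 were lower (44%, against 26.9% of all genes) and 2 higher (7 lower without vehicle replicate 3). Srebf2, the master regulator of sterol synthesis, was at 29.8, 32.5, 27.1 and 30.8 CPM in FSTL3 libraries, against 37.3, 54.6, 57 and 60.5 CPM in batch 1 vehicle libraries, with no overlap (-0.82 ± 0.13, adjusted p = 2.8e-05). Fatty acid synthesis genes were split, 4 higher and 4 lower of 19 (21.1% each): Lpin1, a phosphatidate phosphatase, rose by 1.59 ± 0.39 (adjusted p = 0.013) and Gpam, the first enzyme of glycerolipid synthesis, by 0.94 ± 0.1 (adjusted p = 4.6e-07), while Mlxipl, which codes for ChREBP, fell by 0.86 ± 0.15 (adjusted p = 2.8e-04) and Agpat2 by 0.74 ± 0.094 (adjusted p = 3.1e-06). Length-adjusted, Agpat2 was at -0.33.

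Fatty acid oxidation and PPAR-alpha target genes were lower in 14 of 28 cases (50%, against 26.9% of all genes) and higher in 2 (median -0.53). Without FSTL3 replicate 2, 22 were lower. Acadl, the long-chain acyl-CoA dehydrogenase, was at 171, 190.3, 164 and 179.9 CPM in FSTL3 libraries, against 302, 299, 285 and 304 CPM in batch 1 vehicle libraries, with no overlap (-0.76 ± 0.085, adjusted p = 6.6e-07; length-adjusted -0.33). Pdk4, a pyruvate dehydrogenase kinase, fell by 0.82 ± 0.19 (adjusted p = 0.0013), Ppara itself rose by 0.46 ± 0.13 (adjusted p = 0.0098) and Hadhb, a subunit of the trifunctional protein, by 1.19 ± 0.12 (adjusted p = 1.4e-07), and Cpt1a stood at -0.17 ± 0.12 (adjusted p = 0.23). Of 15 lipid droplet genes 6 were lower and none higher (3 lower without vehicle replicate 4), with Pnpla2, the adipose triglyceride lipase, at -1.33 ± 0.14 (adjusted p = 2.8e-06) and Cideb, which acts in lipoprotein assembly, at -1.32 ± 0.13 (adjusted p = 2.4e-07). Over the batch 2 vehicle Pnpla2 stood at 0.12 (adjusted p = 0.43). Of the lipid droplet genes 40% were lower than in the batch 1 vehicle, against 26.9% of all genes. Among 23 apolipoprotein and lipase genes 12 were lower and 2 higher: Apoe was at 10366, 9917, 8419.9 and 8803 CPM in FSTL3 libraries and 20554, 23314, 21328 and 22929 CPM in batch 1 vehicle libraries, Apob at 27117, 29408, 27122 and 26440.3 CPM in FSTL3 libraries and 10833, 9400.2, 9250.4 and 10329 CPM in batch 1 vehicle libraries. Apoe lay wholly below and Apob wholly above the vehicle (-1.24 ± 0.093 and 1.46 ± 0.089, adjusted p = 5.8e-09 and 6.1e-10; length-adjusted -0.83 and 0.63). As counted, 52.2% of the apolipoprotein list were lower and 8.7% higher, against 26.9% and 28.1% of all genes. Length-adjusted, the list had 6 higher and 5 lower. Length-adjusted, Cideb was at -0.82.

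Of 20 gluconeogenesis and fasting genes 6 were higher (30%, near the 28.1% of all genes) and 2 lower (10%, against 26.9%), and length-adjusted 8 were higher and 2 lower. Irs1, an insulin receptor substrate, was at 25.3, 32.4, 25.7 and 36.2 CPM in FSTL3 libraries, against 7.2, 12.3, 14.3 and 12.5 CPM in batch 1 vehicle libraries, and Foxo3, a factor inhibited by insulin signalling, at 94.2, 90.9, 92.9 and 103 CPM in FSTL3 libraries, against 43.6, 39.6, 54.5 and 54.6 CPM in batch 1 vehicle libraries. Both were separated (1.29 ± 0.18 and 0.93 ± 0.11, adjusted p = 1.8e-05 and 8.0e-07; length-adjusted 0.85 and 0.62). G6pc, glucose-6-phosphatase, rose by 0.86 ± 0.16 (adjusted p = 9.0e-04) and Ppargc1a, the coactivator PGC-1 alpha, by 1.2 ± 0.34 (adjusted p = 0.016), with Pck1 at -0.2 ± 0.3 (adjusted p = 0.61) and Irs2 at -0.21 ± 0.16 (adjusted p = 0.26). Of 16 bile acid genes 6 were higher and 3 lower (37.5% and 18.8%; length-adjusted 9 and 1): Klb, the co-receptor beta-Klotho, rose by 0.59 ± 0.092 (adjusted p = 3.0e-05) and Slco1a1, an uptake transporter, by 1.06 ± 0.18 (adjusted p = 6.7e-04), while Fgfr4, the receptor that Klb serves, fell by 1.11 ± 0.16 (adjusted p = 2.7e-05). Cyp7a1, which controls the rate of bile acid synthesis, was not called (0.87 ± 0.41, adjusted p = 0.12). Of 19 urea cycle and zonation genes 5 were higher and 3 lower (26.3% and 15.8%), with Cps1, the entry enzyme of the cycle, at 1.14 ± 0.17 (adjusted p = 1.8e-04), and Cyp2e1 and Glul, markers of hepatocytes around the central vein, at -0.81 ± 0.1 (adjusted p = 3.0e-06) and -0.49 ± 0.15 (adjusted p = 0.017) (Glul length-adjusted -0.28, adjusted p = 0.15). Length-adjusted, Cyp2e1 was at -0.4.

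Called shares in hormone-regulated and drug-metabolising lists were mostly near or below those of all genes. Of 14 growth hormone and IGF1 genes 5 were higher and 4 lower (35.7% and 28.6%; length-adjusted 2 and 5): Igfbp4, an IGF-binding protein, fell by 0.87 ± 0.093 (adjusted p = 3.9e-07) and Igf1 rose by 0.48 ± 0.11 (adjusted p = 0.0013), but the length-adjusted value of Igf1 was -0.03. Ghr, the growth hormone receptor, stood at 0.43 ± 0.084 as counted (adjusted p = 3.3e-04) and at -0.009 length-adjusted. Male-biased genes were lower in 5 of 20 cases (25%, against 26.9% of all genes; 3 lower without vehicle replicate 3) and higher in 1, and length-adjusted 2 were lower and 3 higher (median 0.03, against -0.44 as counted). Of the 5, Mup19 and Mup4 passed the count filter through the batch 1 vehicle libraries alone, so their calls are no test. Over the batch 2 vehicle 16 of the 20 male-biased genes were lower and none higher. In the vehicle of batch 1, 19 of the 20 were lower than in the vehicle of batch 2. Of 4 female-biased genes Cyp2b9 rose by 2.67 ± 0.56 on 108 reads in FSTL3 and 6 in batch 1 vehicle libraries (adjusted p = 6.1e-04), and Cyp17a1 stood at 1.35 ± 1.004 (adjusted p = 0.3). Of 27 P450-related genes 5 were higher and 5 lower (18.5% each; length-adjusted 9 higher and 3 lower), among them Cyp3a25 at 1.06 ± 0.11 (adjusted p = 1.9e-07) and Por, the electron donor of P450 enzymes, at -1.19 ± 0.11 (adjusted p = 4.5e-08). Por was higher than in the batch 2 vehicle (0.54, adjusted p = 0.0036). Of 16 glucocorticoid targets 2 were higher and 4 lower (12.5% and 25%; length-adjusted 4 and 2). Tsc22d3, the leucine zipper GILZ, was at 1.11 ± 0.23 (adjusted p = 0.003) and Zbtb16 at 2.01 ± 0.55 (adjusted p = 0.021). Without FSTL3 replicate 1 or vehicle replicate 4, 2 of the glucocorticoid targets were lower.

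Iron genes were lower in 7 of 15 cases (46.7%, against 26.9% of all genes) and higher in 3 (20%, against 28.1%). Fth1, ferritin heavy chain, was at 532, 550.2, 540.2 and 624 CPM in FSTL3 libraries, against 1955, 1824, 1799 and 1715 CPM in batch 1 vehicle libraries (-1.71 ± 0.093, adjusted p = 2.2e-10; length-adjusted -1.07), and Tfrc, the transferrin receptor, rose by 1.13 ± 0.13 (adjusted p = 7.2e-07), though it fell by 0.61 against the batch 2 vehicle. Of 21 glutathione and NRF2 genes 10 were lower and 2 higher (length-adjusted 8 and 5). Hmox1, haem oxygenase 1, was at 11.4, 9.67, 10.1 and 14.3 CPM in FSTL3 libraries, against 58.1, 41, 49.7 and 35.1 CPM in batch 1 vehicle libraries (-2.05 ± 0.16, adjusted p = 4.2e-08), and Gpx4, which reduces lipid peroxides, at 24, 25.2, 22.9 and 19.9 CPM in FSTL3 libraries, against 68.6, 77.9, 56.3 and 56.3 CPM in batch 1 vehicle libraries (-1.45 ± 0.12, adjusted p = 1.2e-08). Neither overlapped. Hepatocyte transcription factors were lower in 11 of 19 cases and higher in 4. Cebpa fell by 1.04 ± 0.11 (adjusted p = 4.1e-07) and Hnf4a by 0.38 ± 0.1 (adjusted p = 0.0027), while Nr5a2 rose by 0.43 ± 0.1 (adjusted p = 0.002).

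Genes of protein turnover, translation and respiration were mostly lower, and their messages were short, with median exon lengths of 1814.5 bases for oxidative phosphorylation and 1989.5 bases for cytosolic ribosomal proteins. Of 54 nuclear genes of oxidative phosphorylation 36 were lower (66.7%, against 26.9% of all genes) and 4 higher (7.41%, against 28.1%), with a median of -0.44. Of 44 mitochondrial ribosomal protein genes 28 were lower (63.6%) and 1 higher (2.27%), with a median of -0.41. Of 68 cytosolic ribosomal protein genes 38 were lower (55.9%) and 8 higher (11.8%), with a median of -0.51. Of 31 proteasome genes 24 were lower (77.4%) and none higher, with a median of -0.47. Length-adjusted, oxidative phosphorylation had 13 higher and 13 lower (median 0.02), mitochondrial ribosomal proteins 5 higher and 17 lower (median -0.06), cytosolic ribosomal proteins 14 higher and 28 lower and the proteasome 1 higher and 15 lower. Of all genes 23.5% were higher and 23.4% lower after that adjustment, and oxidative phosphorylation lay near those shares. Uqcrq, a subunit of complex III, was at 71.1, 69.1, 65.2 and 68.5 CPM in FSTL3 libraries, against 223, 246, 253 and 235 CPM in batch 1 vehicle libraries, and Rps15, a protein of the small subunit, at 43, 40.7, 39.1 and 43.5 CPM in FSTL3 libraries, against 111, 111, 129 and 119.9 CPM in batch 1 vehicle libraries. Both were well separated (-1.81 ± 0.084 and -1.52 ± 0.09, adjusted p = 3.0e-11 and 4.9e-10) and remained lower after length adjustment (-1.37 and -0.8). Atp5d, of the ATP synthase, fell by 1.32 ± 0.1 (adjusted p = 8.0e-09), Mrpl14 by 1.32 ± 0.11 (adjusted p = 2.7e-08), Mrps24 by 1.17 ± 0.11 (adjusted p = 8.2e-08), and Psmd7 and Psma6, of the proteasome, by 1.04 ± 0.094 (adjusted p = 5.5e-08) and 0.93 ± 0.088 (adjusted p = 9.8e-08). Cycs, cytochrome c, and Rpsa, the laminin receptor of the small subunit, rose by 1.51 ± 0.19 (adjusted p = 3.2e-06) and 1.86 ± 0.31 (adjusted p = 6.4e-05). Both have many processed pseudogenes that can take their reads. Length-adjusted, Mrpl14 was at -0.72, Mrps24 at -0.68, Psmd7 at -0.64 and Psma6 at -0.38.

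Heat shock genes were lower in 12 of 19 cases and higher in 3 (median -0.60; length-adjusted 9 lower and 1 higher). Bag3, a co-chaperone of HSP70, was at 13.9, 12.9, 11 and 12 CPM in FSTL3 libraries, against 37.3, 38.3, 36.1 and 37.2 CPM in batch 1 vehicle libraries, with no overlap (-1.58 ± 0.11, adjusted p = 3.9e-09). Hspa1b, inducible HSP70, fell by 1.31 ± 0.3 (adjusted p = 0.0013) and Hsp90ab1 by 0.74 ± 0.11 (adjusted p = 1.2e-05), whereas Hsp90aa1 stood at 0.042 ± 0.21 (adjusted p = 0.89). Endoplasmic reticulum chaperones were lower in 10 of 26 cases (38.5%, against 26.9% of all genes) and higher in 4 (15.4%, against 28.1%). Dnajb9, a co-chaperone of BiP, fell by 0.95 ± 0.092 (adjusted p = 1.2e-07) and Canx, calnexin, rose by 0.58 ± 0.084 (adjusted p = 1.4e-05), with Hspa5, BiP itself, at -0.38 ± 0.19 (adjusted p = 0.11). Hspa5 was lower against the batch 2 vehicle (-1.81, adjusted p = 3.7e-04), as were 16 of the chaperones and 16 of the heat shock genes. Length-adjusted, Hsp90ab1 was at -0.47 and Dnajb9 at -0.6.

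**Figure D5:**
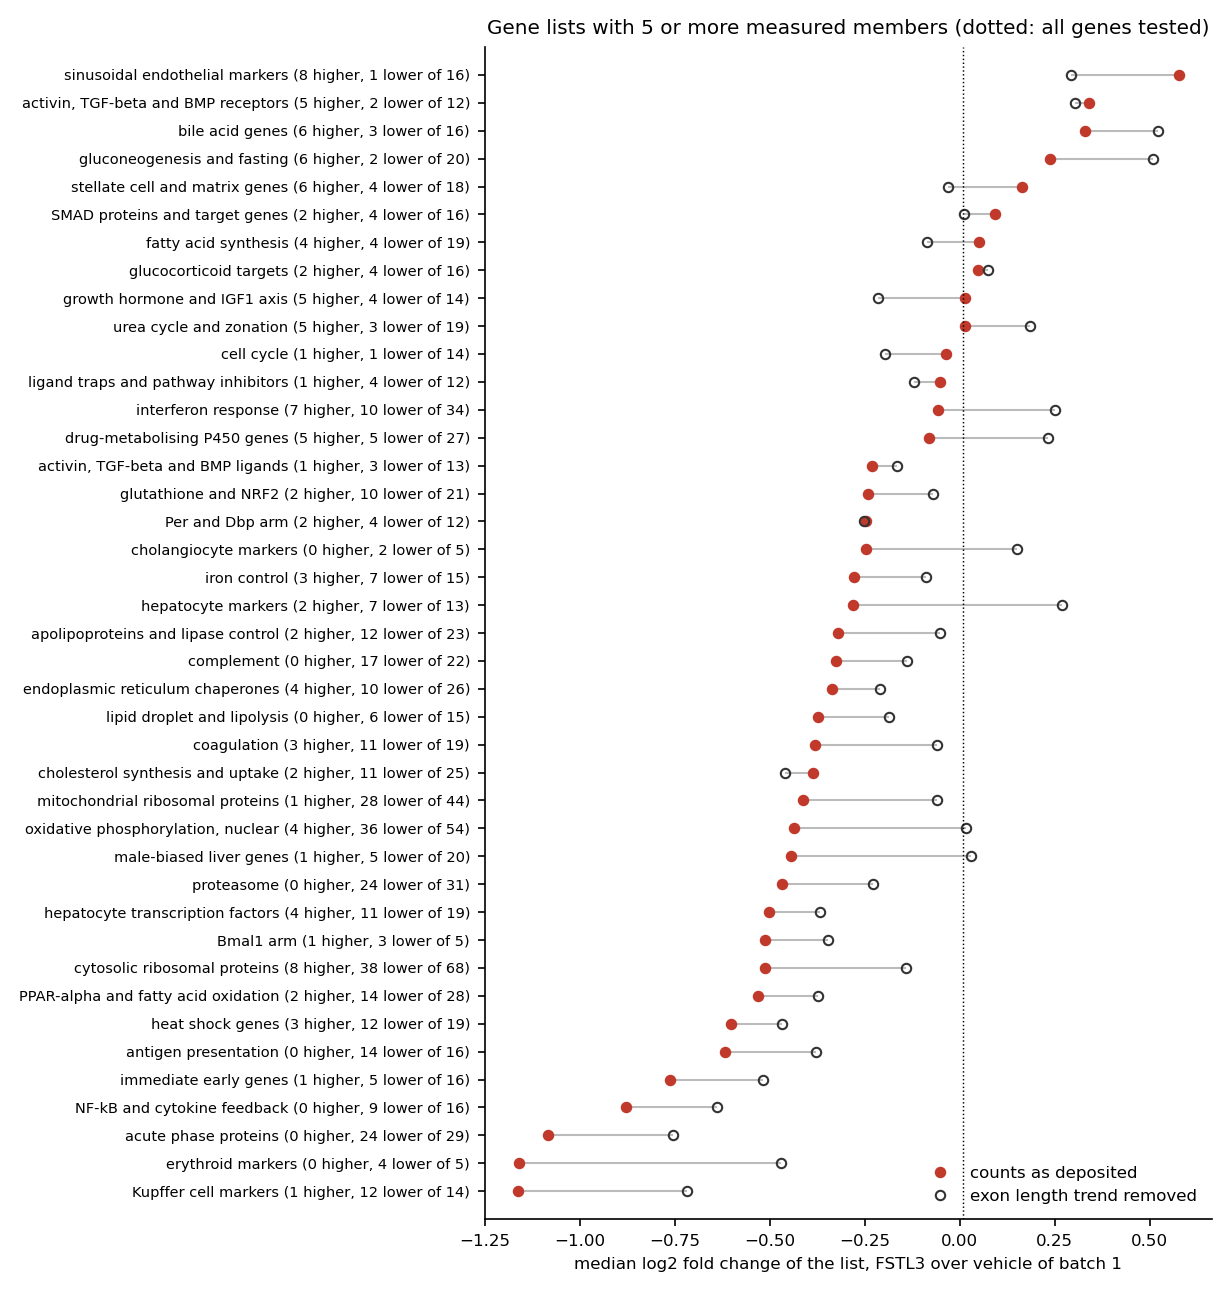
Median log2 fold change of FSTL3 over the vehicle of batch 1 (x axis) for gene lists with 5 or more measured members other than histones, as counted (filled) and length-adjusted (open), with the counts of members called beside each name. The dotted line is the median of all 11559 genes, 0.01. As counted, Kupffer, red cell, acute phase and cytokine feedback lists lie farthest below it and sinusoidal endothelial markers farthest above, whereas length-adjusted the bile acid and gluconeogenesis lists lie above the endothelial one.

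Over the 42 lists with 5 or more measured members, the median was below 0 in 31. Among the genes named above, Saa1, Saa2, Lcn2, Orm2, Hp, Inhbc, Fth1, Bag3, C1qc and Marco were lower, and Bmpr2, Acvr2a, Tgfbr1, Hgf, Stab2 and Irs1 higher, in FSTL3 livers than in either vehicle group. Tgfb1, Pnpla2, Tmprss6, Cebpd and Clec4f were lower than in the batch 1 vehicle and were not called against the batch 2 vehicle (-0.23, 0.12, 0.043, 0.19 and -0.22). Other genes of this kind were Steap4, Junb, Fgfr4 and Id3 (-1.17, -0.81, -0.33 and -0.53 against the batch 2 vehicle). Tsc22d3 and Hadhb were higher than in the batch 1 vehicle and not called against the batch 2 vehicle (0.3 and 0.29). The genes given here are examples. Cebpb, Por, Smurf1 and Eng were called in opposite directions against the 2 vehicles. Since both comparisons use the same FSTL3 libraries, these are each comparison's own values and no repeat of one by the other.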

How the data were processed

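RNA of mouse liver was sequenced from 800 ng of total RNA per library with a KAPA Hyper-prep kit in paired 50 bp reads, per the labels' protocols. The table deposited by the authors holds a raw count of reads for each gene. The submitters' processing notes name STAR 2.6.0c and the build GRCm38. Per the file headers, exons of Ensembl 95 were counted by featureCounts 1.6.3 without a strand setting, so antisense and overlapping genes cannot be separated. The summed exon length per gene came from the same deposited table. Symbols were found for 54723 of 54838 gene IDs, and biotypes came from GENCODE M21.

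Protein-coding nuclear genes of the 8 libraries passed edgeR's filterByExpr and TMM scaling before edgeR's robust quasi-likelihood fit (version 4.0.16, R 4.3.3; SE from the fit, Benjamini-Hochberg adjustment over all genes tested, threshold 0.05). Tested on simulated data for this comparison (11403 genes), the fit called 86% of 2-fold and 99% of 4-fold changes, with 14 unchanged genes called. CPM were scaled by TMM over 12 libraries (both vehicle groups and FSTL3). The clock index used a pseudocount of 1 CPM. The length trend was removed as an offset per library (lowess, span 0.3). Shares were compared by exact permutation tests, and counting intervals cover counting error only. No 2 libraries of a group agreed within sampling noise (chi-square per degree of freedom of 1.83 or more).

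Genes were named by rule: among called genes whose groups did not overlap, with a mean of 1 CPM or more and 4 or more reads in each group, the 12 highest and the 12 lowest; the 4 smallest p-values of each clock and activin pathway list; the 2 smallest of each other list; and Fstl3. Some genes that the rule names are not reported here. Further members of the lists were named after their values were seen. The groups, the members and the 49 gene lists were chosen with earlier results of these data known. Alternatives were DESeq2 1.42.0 (its size factors, or its test), limma-voom 3.58.1, other filters and gene sets, all 23 libraries in one fit, thinned counts, length adjustment, a replicate block and leaving out each library. Promoter sequences are RefSeq's.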

Additional observations from a re-analysis of the deposited data

Results flagged for a closer look

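In 10 of 110 groups of 4 libraries looked at, one library stood apart from the other 3 by Dixon's criterion for the gap to the nearest library over the range, which chance alone meets in about 1 of 20 groups. In 3 of the highest genes, a single vehicle library of batch 1 held all the reads of its group: Elf5 at 0.642 CPM in replicate 3, Gucy1a2 at 1.39 CPM in replicate 4 and Slc4a10 at 0.514 CPM in replicate 3, each with the other 3 at 0. Mup4 was at 0.101 CPM in FSTL3 replicate 4, against 0.637 to 0.669 CPM in the other FSTL3 libraries.

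The shallow vehicle replicate 2 of batch 1 was low in 2 receptors, with Acvr2a at 23.2 CPM against 35.2 to 35.5 CPM in the others and Tgfbr3 at 6.83 CPM against 11.8 to 12.7 CPM. FSTL3 replicate 4 was high in Ski, at 25.7 CPM against 18.8 to 19.5 CPM, and in Atoh8, at 12.8 CPM against 6.13 to 7.01 CPM. The share of mitochondrial genes that code for no protein was 0.701% in vehicle replicate 2 of batch 1, against 0.641% to 0.647% in the others. The share of replication-dependent histones was 0.0236% in FSTL3 replicate 1, against 0.0190% to 0.0197% in the other FSTL3 libraries.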

How the results depend on the processing

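Of the 117 genes named by rule 113 were called, and 83 kept their direction and call under every alternative in which they could be tested. The count of called genes was 6330 with DESeq2 size factors, 5781 with DESeq2, 6359 with limma-voom, 6627 with no filter, 6052 with a stricter filter and 7584 over genes of every biotype, against 6360. With no filter the median log2 fold change of all genes was 0.118. The count of called genes was 3021 with all 23 libraries in the fit, where 24 of the named genes lost their calls, 3148 with counts thinned to the smallest library (6941 genes tested) and 2734 among genes that overlap no other gene (5258 tested, with 68 of the named genes called). Leaving out one library gave 5423 to 6339. With the length trend removed Ghr reversed to -0.00897, against 0.43, and Clock, Cry1, Bmp4, Id3, Reln, Alas2, Hbb-bt and Ccne1 lost their calls. Krt7 lost its call without any one library other than FSTL3 replicate 3 or vehicle replicate 2, and with it the cholangiocyte list went to 1 lower. Fabp4 gained one without FSTL3 replicate 4 or vehicle replicate 2, and Bmp4 and Ccne1 lost theirs without vehicle replicate 3. The red cell list had 2 lower without FSTL3 replicate 2 or vehicle replicate 3. Cela1, never called, lay between -0.90 (without vehicle replicate 3) and 0.095 (without vehicle replicate 4). The causes were not tested. Replicate numbers did not pair the libraries (same-number correlations of -0.0441, 0.0845, 0.0771 and -0.011); with the replicate block 6306 genes were called (3241 higher, 3065 lower), and of the named genes Krt7 alone lost its call. With 773499 counts in the shallowest vehicle library, genes of a few reads there are poorly bounded.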
